A study of Sus scrofa with 6 samples.

Results

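The enzymes of fatty acid beta-oxidation were followed at the level of messenger RNA, by sequencing of loin muscle (longissimus dorsi) from Wei and Yorkshire pigs. The genes were chosen by name, as a list of 37 symbols of the pathway, and not by any measured value. Of these, 31 had a row with that symbol in the deposited table of 25322 genes, and each had 1 row. ACADVL, ACAD10 and ACAA1 had a row only by gene ID and are given apart from the 31. No row was found for MLYCD, EHHADH or ACOT2 by symbol or by gene ID, so they were not analysed here.

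There were 3 libraries of Wei pigs, which had free access to commercial feed and water and were slaughtered at 90 kg, and 3 libraries of Yorkshire pigs, which the labels describe as kept in a similar way. The labels state a weight at slaughter for Wei alone, and no treatment, sex or age for either breed. The titles of Wei libraries carry the code YH and those of Yorkshire libraries the code LWH, which the labels leave unexplained. Separate animals are not stated. Y chromosome counts in Wei replicate 2 alone show that the Wei libraries were not all made from 1 animal, while for Yorkshire the spread between libraries, on which each p-value also rests, may be technical.

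Beta-oxidation shortens fatty acids inside mitochondria, and oxidative muscle fibres are known to rely on it during rest and endurance work. Long chains enter as carnitine esters through the carnitine shuttle, whose first step is blocked by malonyl-CoA. Each round then runs through an acyl-CoA dehydrogenase, an enoyl-CoA hydratase, a hydroxyacyl-CoA dehydrogenase and a thiolase, and the electrons of the first reaction reach the respiratory chain through the electron transfer flavoprotein and its dehydrogenase. Isomerases and reductases handle double bonds, and peroxisomes shorten chains that mitochondria take up poorly.

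The libraries held between 15285197 and 22570075 gene counts in Wei and between 17876646 and 27096747 in Yorkshire. Muscle markers were abundant in each library, with ACTA1, the skeletal muscle actin, at 3.77% to 7.97% of counts in Wei and 7.88% to 8.76% in Yorkshire, while 6 hepatocyte markers summed to at most 1.89 CPM (the count relative to library size, TMM scaled) in any library. Counts from the Y chromosome numbered 6901 in Wei replicate 2 and at most 14 in any other library. Yorkshire replicate 3 stood apart in leukocyte markers: 10 lymphocyte genes summed to 42.8 CPM there, against 7.40 to 8.32 in the Wei libraries and 10.7 and 13.0 in the other Yorkshire libraries, and 9 macrophage genes to 170.5 CPM, against 43.5 to 51.7 in Wei and 40.7 and 49.8 in the other Yorkshire libraries. In bulk tissue, fewer cells of a type and less RNA per cell cannot be told apart.

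The comparison set Wei against Yorkshire libraries. In Wei, 6 of the 31 genes were called higher, and no gene of the list lower. Of the 6, CPT1B is the muscle form of the carnitine palmitoyltransferase that commits long chains to oxidation, and ACACB makes the malonyl-CoA that inhibits it. The others were the medium- and short-chain acyl-CoA dehydrogenases ACADM and ACADS, HADHB, the beta subunit of the trifunctional protein, and ECI1, an enoyl-CoA isomerase. The name of the ECI1 row is uncertain, as given below. The 6 fold changes lay between 1.57 and 2.77. A gene was called when its Benjamini-Hochberg adjusted p in edgeR's quasi-likelihood test over all genes was under 0.05. Over the 13209 genes tested, 2.73% were called higher in Wei and 2.35% lower, against 20% and 0 of the 30 beta-oxidation genes that passed the count filter. DESeq2 called 12, the 6 and ACAD9, ACAT1, CPT1A, CRAT, DECR2 and ETFDH, and 1291 of all genes against 671 in edgeR's test. With a library left out, calls fell among all genes too: beta-oxidation calls numbered 1, 5 and 1 without Wei replicates 1, 2 and 3, beside 216, 394 and 240 of all genes. They numbered 1, 0 and 0 without Yorkshire replicates 1, 2 and 3, beside 276, 60 and 165 of all genes. The 5 were CPT1A and 4 of the 6, namely CPT1B, ACACB, ACADM and ECI1. Over the 6 fits that each left out a library, adjusted p lay between 0.0311 and 0.122 for CPT1B, 0.0433 and 0.124 for ACACB, 0.0279 and 0.145 for ACADM, 0.0603 and 0.119 for ACADS, 0.0534 and 0.119 for HADHB, and 0.0311 and 0.0926 for ECI1.

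CPT1C, the carnitine palmitoyltransferase best known from brain, was the gene that failed the filter, with 14 counts over the Wei libraries together and 23 over those of Yorkshire. Every one of the other 30 had at least 84 counts in each library, so none passed through a single breed. Their log2 fold changes (Wei over Yorkshire) ran from -0.47 for ETFB to 1.47 for CPT1B, with a median of 0.39, against -0.023 for all tested genes. A positive change was seen in 26 of 30, or 86.7%, against 47.8% of all tested genes. Without adjustment, 15 had p under 0.05 with Wei higher and 0 with Wei lower, where the shares over all tested genes were 11.4% higher and 11.8% lower. In 15 of the 30 the Wei values all lay above the Yorkshire values, and in 0 all below, against 14.3% and 15.3% of all tested genes.

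**Figure D1:**
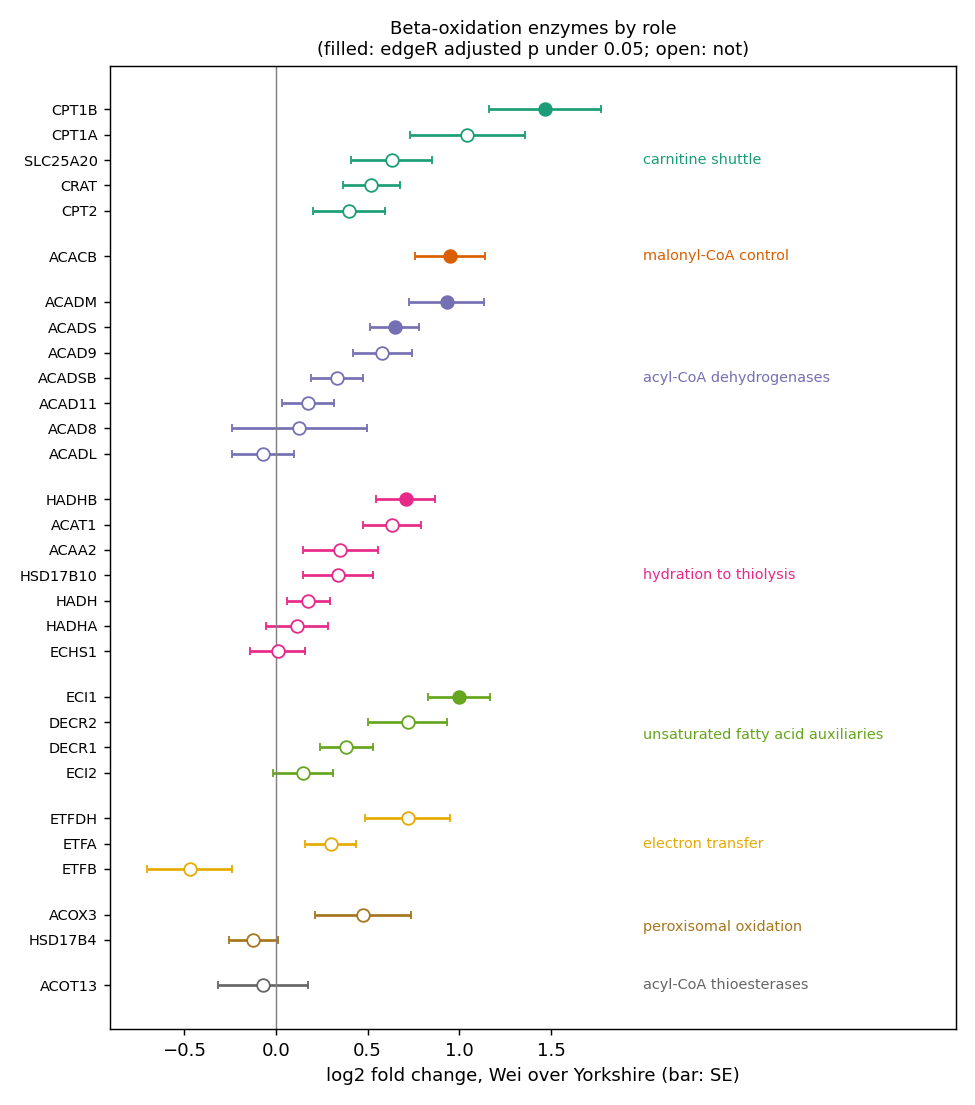
Log2 fold change of each tested beta-oxidation gene, Wei over Yorkshire, on the horizontal axis, with genes grouped by role down the page. Points are edgeR estimates with bars of 1 SE, filled for the 6 genes past an adjusted p of 0.05 and open for the 24 others, and 26 of 30 points lie right of 0.

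In the carnitine shuttle, CPT1B stood at 79.4, 37.2 and 47.2 CPM in Wei replicates 1 to 3, against 24.6, 20.7 and 14.0 CPM in Yorkshire replicates 1 to 3. Wei replicate 1 was well above the rest of its breed, and the lowest Wei library was still above the highest Yorkshire library. The log2 fold change was 1.47 ± 0.30 (SE; edgeR's quasi-likelihood test, adjusted p = 0.0363), or 2.77-fold, the largest among the 30. Without Wei replicate 1 it was 1.10. CPT1B lies on an unplaced scaffold of the Sscrofa10.2 build (ENSSSCG00000022364), so no chromosome is given.

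CRAT, the carnitine acetyltransferase that buffers acetyl-CoA in muscle mitochondria, was the most abundant of the 31. Its Wei libraries held 913, 953 and 1135 CPM and its Yorkshire libraries 791, 675 and 626 CPM. The breeds did not overlap, but the log2 fold change of 0.52 ± 0.15 missed the threshold (adjusted p = 0.0912). CPT1A, the form that predominates in liver, had 14.1, 7.09 and 15.3 CPM in Wei and 7.78, 4.65 and 5.32 CPM in Yorkshire. Wei replicate 2 fell among the Yorkshire values. In edgeR's test the log2 fold change of 1.04 ± 0.31 missed the threshold (adjusted p = 0.0936), which CPT1A passed without Wei replicate 2 (1.32, adjusted p = 0.0354). The CPT1A row overlaps a row without a symbol by 10634 bases, so some reads could belong to either. That row had 130 raw counts, not scaled to library size, over the Wei libraries and 71 over those of Yorkshire. SLC25A20, the carrier that exchanges acylcarnitine for carnitine across the inner membrane, and CPT2, which restores acyl-CoA inside, had log2 fold changes of 0.63 ± 0.22 and 0.40 ± 0.20, and neither passed.

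ACACB, the acetyl-CoA carboxylase at the mitochondrial surface, stood at 171, 112 and 109.8 CPM in Wei and 74.5, 62.2 and 67.4 CPM in Yorkshire. All Wei libraries were higher, with Wei replicate 1 the highest by a wide margin. The log2 fold change was 0.95 ± 0.19 (adjusted p = 0.0352), or 1.93-fold. CPT1B and the gene for the enzyme that makes its inhibitor were both higher in Wei. The gene (ENSSSCG00000009937) lies on chromosome 14, 44154008 to 44271216. Among 3 further malonyl-CoA genes none was called. ACACA, the cytosolic carboxylase of fatty acid synthesis, had the smallest p, with 7.40, 7.87 and 5.04 CPM in Wei against 7.93, 8.85 and 17.8 CPM in Yorkshire and a log2 fold change of -0.78 ± 0.33 (adjusted p = 0.202), and Yorkshire replicate 3 was the high library. ACSF3, the mitochondrial malonyl-CoA synthetase, went the other way with nearly the same p, at 0.47 ± 0.20 (adjusted p = 0.203), and MCAT, the mitochondrial malonyl transferase, had a log2 fold change of 0.33 ± 0.22 (adjusted p = 0.407). In both, every Wei library lay above every Yorkshire library.

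**Figure D2:**
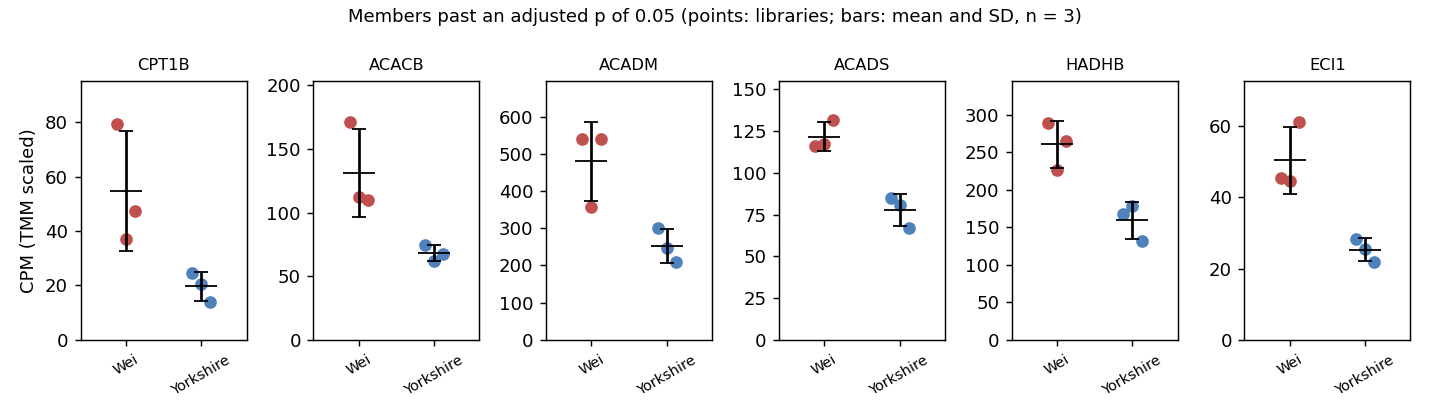
CPM of the 6 called genes in each library, in Wei and in Yorkshire, with each vertical axis starting at 0. Points are libraries and bars the mean with its SD (n = 3); for each gene the lowest Wei library lies above the highest Yorkshire library, and CPT1B and ACACB have Wei replicate 1 far above the other Wei libraries.

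Among 7 acyl-CoA dehydrogenases with a row under their symbol, 2 were called higher in Wei and none lower. A positive log2 fold change was seen in 6 of the 7. ACADM, which acts on medium chains, held 541, 357 and 541 CPM in Wei and 300.5, 246 and 209 CPM in Yorkshire. Wei replicate 2 was the lowest of its breed and still above every Yorkshire library. Its log2 fold change was 0.93 ± 0.21 (adjusted p = 0.0429), or 1.91-fold. ACADS, which acts on short chains, held 116, 117 and 132 CPM in Wei and 85.1, 80.9 and 67.1 CPM in Yorkshire. The Wei libraries lay close together and apart from Yorkshire, and the log2 fold change was 0.65 ± 0.13 (adjusted p = 0.0361), or 1.57-fold. ACADM (ENSSSCG00000003776) lies on chromosome 6, 127513773 to 127548453, and ACADS (ENSSSCG00000009916) on chromosome 14, 43110575 to 43124766.

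ACADL, the long-chain dehydrogenase, did not follow them. It held 86.6, 65.8 and 82.7 CPM in Wei against 84.8, 95.0 and 66.6 CPM in Yorkshire, and the breeds overlapped throughout, with a log2 fold change of -0.067 ± 0.169 (adjusted p = 0.847). The very long-chain dehydrogenase ACADVL, whose row was named only by gene ID, had 98.4, 59.2 and 62.1 CPM in Wei and 44.7, 48.3 and 38.4 CPM in Yorkshire. Its breeds did not overlap, and the log2 fold change of 0.74 ± 0.21 missed the threshold (adjusted p = 0.0791). ACAD9, needed for assembly of respiratory complex I besides its dehydrogenase activity, had a log2 fold change of 0.58 ± 0.16 (adjusted p = 0.079). ACADSB and ACAD8, which serve branched-chain amino acid breakdown, had log2 fold changes of 0.33 ± 0.14 and 0.13 ± 0.37, and ACAD11 one of 0.18 ± 0.14.

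ACAD8 varied more within breeds than between them, at 11.4, 5.92 and 7.78 CPM in Wei and 3.95, 8.74 and 10.3 CPM in Yorkshire. Its gene ID is paired with VPS26B, a near neighbour, in the reference table of gene names, so its value is uncertain. ACAD10, again a row named by gene ID, held between 4.73 and 6.22 CPM in Wei and between 3.04 and 4.49 CPM in Yorkshire (log2 fold change 0.53 ± 0.22, adjusted p = 0.198), and it lies within the row of CIT, so its reads could belong to either gene.

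Of 7 enzymes from hydration to thiolysis, HADHB was the 1 gene called. HADHB, the thiolase subunit of the trifunctional protein, held 289.96, 227 and 265 CPM in Wei and 168, 179 and 132 CPM in Yorkshire. All Wei libraries were higher, with a log2 fold change of 0.71 ± 0.16 (adjusted p = 0.0448), or 1.63-fold. HADHA, its partner with the hydratase and long-chain hydroxyacyl-CoA dehydrogenase activities, held 308, 225 and 271 CPM in Wei and 294, 230.2 and 217 CPM in Yorkshire. There the breeds overlapped and the log2 fold change was 0.12 ± 0.17 (adjusted p = 0.721). The genes lie side by side on chromosome 3, HADHB at 119649281 to 119690928 and HADHA at 119690599 to 119782862, and their rows share 330 bases, whose reads could be assigned to either gene. With any 1 library left out, HADHB missed the threshold.

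ACAT1, the thiolase of ketone body and isoleucine breakdown, came next, at 154, 146 and 181 CPM in Wei and 102, 122 and 87.0 CPM in Yorkshire. Its breeds did not overlap, and the log2 fold change of 0.63 ± 0.16 just missed the threshold (adjusted p = 0.058). ACAA2, the medium-chain thiolase, HSD17B10, a hydroxyacyl-CoA dehydrogenase of isoleucine breakdown, and HADH, the short-chain hydroxyacyl-CoA dehydrogenase, had log2 fold changes of 0.35 ± 0.21, 0.34 ± 0.19 and 0.18 ± 0.12. ECHS1, the short-chain hydratase, stood at 34.6, 43.4 and 44.4 CPM in Wei and 35.3, 44.2 and 42.0 CPM in Yorkshire, which gave a log2 fold change of 0.010 ± 0.149. Neither these 4 nor ACAT1 were called in edgeR's test. ACAT1 passed in DESeq2 (adjusted p = 0.0106) and in edgeR's test without the count filter (adjusted p = 0.0475).

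The enzymes that deal with double bonds included ECI1, which had the smallest p of the 30. ECI1, the mitochondrial isomerase that moves a double bond into the position the hydratase accepts, held 45.6, 44.6 and 61.3 CPM in Wei and 28.4, 25.5 and 22.0 CPM in Yorkshire. Every Wei library lay above every Yorkshire library, and the log2 fold change was 0.997 ± 0.169 (adjusted p = 0.022). It passed in 4 of the 6 fits that left out a library, more than any other of the 30, but not without Yorkshire replicate 2 or 3. The row (ENSSSCG00000024587, chromosome 3, 42420365 to 42425480) overlaps that of DNASE1L2 by 987 bases. The reference table pairs the ID of the ECI1 row with DNASE1L2, so its name and value are uncertain, as for ACAD8. The table's own DNASE1L2 row had 174 counts in all Wei libraries and 197 in all Yorkshire libraries. These are raw sums, not scaled to library size, so they give no direction between breeds.

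DECR2, the peroxisomal dienoyl-CoA reductase, had 15.7, 21.0 and 25.1 CPM in Wei and 9.77, 14.3 and 13.6 CPM in Yorkshire, with no overlap between breeds and a log2 fold change of 0.72 ± 0.22 (adjusted p = 0.0921). DECR1, its mitochondrial counterpart and the most abundant of these by FPKM (the deposited level per transcript length, used here to compare genes), held 56.9, 59.2 and 67.9 CPM in Wei against 50.3, 51.2 and 39.6 CPM in Yorkshire. Again the breeds did not overlap, and the log2 fold change of 0.38 ± 0.14 missed the threshold (adjusted p = 0.158). ECI2, a second isomerase, had a log2 fold change of 0.15 ± 0.16.

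Electron transfer from the dehydrogenases held no gene called by edgeR, which gave 1 of 3 an unadjusted p under 0.05. ETFDH, the dehydrogenase that passes electrons to ubiquinone, held 351, 205 and 243 CPM in Wei and 189, 172 and 125 CPM in Yorkshire. All Wei libraries were higher, and the log2 fold change of 0.72 ± 0.23 missed the threshold in edgeR's test (adjusted p = 0.108) and passed it in DESeq2 (adjusted p = 0.034). ETFA, the alpha subunit of the flavoprotein, held 162, 136 and 161 CPM in Wei and 127, 137 and 109.7 CPM in Yorkshire, with a log2 fold change of 0.30 ± 0.14 (adjusted p = 0.234). ETFB, the beta subunit, held 39.3, 37.2 and 32.6 CPM in Wei and 64.6, 53.7 and 32.7 CPM in Yorkshire. Yorkshire replicate 3 was as low as the Wei libraries, and the log2 fold change was -0.47 ± 0.23 (adjusted p = 0.266).

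Neither edgeR nor DESeq2 called ACOX3, HSD17B4 or ACOT13, the peroxisomal and thioesterase genes with a symbol, and edgeR gave 0 of them an unadjusted p under 0.05. ACOX3, an acyl-CoA oxidase for branched chains, stood at 8.11, 6.70 and 8.12 CPM in Wei and 7.74, 4.76 and 3.97 CPM in Yorkshire, with a log2 fold change of 0.48 ± 0.26 (adjusted p = 0.309). HSD17B4, the peroxisomal bifunctional enzyme, had 26.6, 24.9 and 21.6 CPM in Wei and 24.5, 28.2 and 26.8 CPM in Yorkshire, and its change was -0.12 ± 0.14 on the log2 scale (adjusted p = 0.629). ACAA1, the peroxisomal thiolase and a row named by gene ID, had a log2 fold change of 0.26 ± 0.17 (adjusted p = 0.403). ACOT13, a mitochondrial acyl-CoA thioesterase, varied widely within breeds, at 40.1, 27.8 and 37.6 CPM in Wei and 26.5, 50.6 and 33.8 CPM in Yorkshire (log2 fold change -0.070 ± 0.244, adjusted p = 0.892).

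Levels can be compared between genes only per length, so the deposited FPKM values were used for the order of abundance. CRAT led with 379.6 ± 20.4 FPKM in Wei and 269 ± 15.9 in Yorkshire (SD, n = 3), above ACADM in each of the 6 libraries. ACADM followed at 196 ± 51.5 FPKM in Wei and 103 ± 12.5 in Yorkshire. The next ranks by mean were ACOT13, ETFA, HADHA, HADH, ETFDH and ACAT1, with means between 79.8 and 106 FPKM over the 6 libraries. No neighbours among them kept the same order in every library. The rank of ACOT13 rests on a short row (chromosome 7, 20657200 to 20658607). Its mean was 35.1 CPM in Wei and 37.0 CPM in Yorkshire, against 153 and 125 CPM for ETFA. At the low end CPT1A stood at 1.54 ± 0.59 FPKM in Wei and 0.75 ± 0.17 in Yorkshire, below ACOX3 in each library, and CPT1C at 0.0941 ± 0.0478 FPKM in Wei and 0.12 ± 0.05 in Yorkshire.

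**Figure D3:**
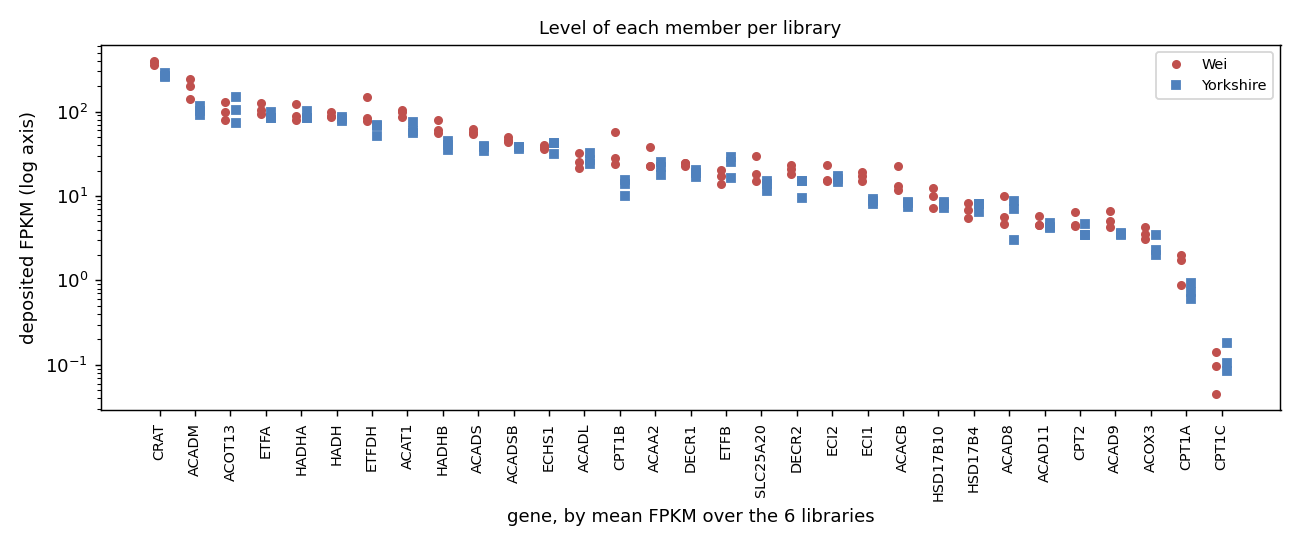
Deposited FPKM of the 31 genes in each library on a log axis, ordered by the mean over the 6 libraries, with Wei libraries as circles left of Yorkshire libraries as squares. CRAT is the highest in each library and CPT1C the lowest.

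Ratios of FPKM between partner enzymes within a library do not depend on library size, and 5 were computed, chosen after the values were seen. HADHB over HADHA was 0.65, 0.70 and 0.67 in Wei and 0.39, 0.54 and 0.42 in Yorkshire, with no overlap. ETFB over ETFA was 0.16, 0.18 and 0.13 in Wei and 0.34, 0.26 and 0.20 in Yorkshire, lower in every Wei library. ACADM over ACADL was 7.65, 6.63 and 8.002 in Wei and 4.34, 3.17 and 3.83 in Yorkshire, and ECI1 over ECI2 was 0.75, 0.965 and 1.27 in Wei and 0.53, 0.55 and 0.55 in Yorkshire. The ratios set genes that differed between breeds beside partners that differed less or the other way, so they are a description and no test is given. CPT1B over CPT1A was 29.2, 27.3 and 16.0 in Wei and 16.4, 23.2 and 13.7 in Yorkshire, which overlapped.

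**Figure D4:**
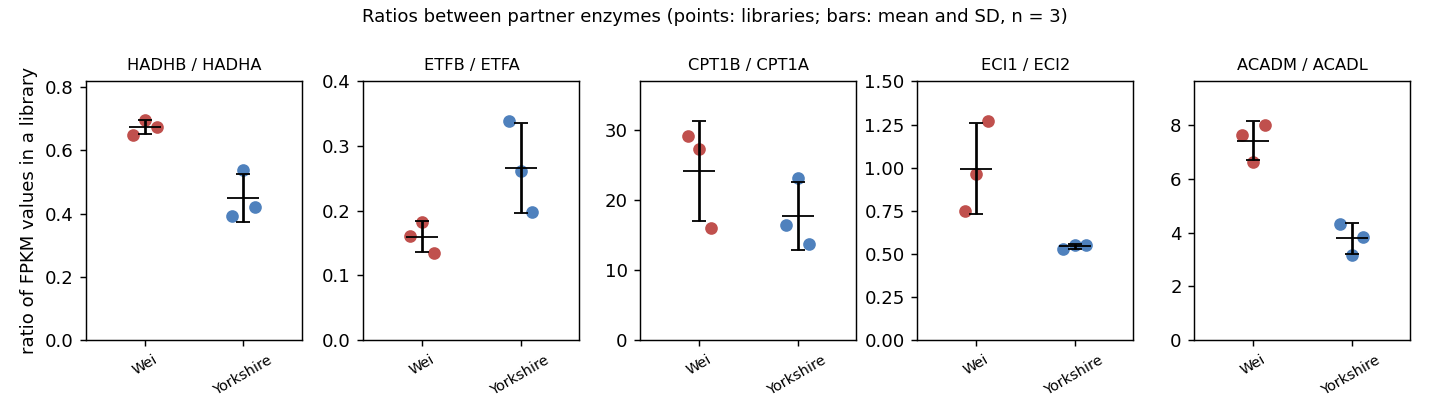
Ratio of deposited FPKM values between partner enzymes in each library, in Wei and in Yorkshire, with each axis starting at 0. Points are libraries and bars the mean with its SD (n = 3); HADHB over HADHA averages 0.67 in Wei and 0.45 in Yorkshire, and CPT1B over CPT1A is the 1 ratio of 5 whose breeds overlap.

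Summed over the 30 tested genes, the level was 3974, 3299 and 4004 CPM in Wei and 2919, 2724 and 2311 CPM in Yorkshire. Every Wei library lay above every Yorkshire library. Without CRAT, the most abundant, it averaged 2759 ± 371 CPM in Wei and 1954 ± 237 CPM in Yorkshire (SD, n = 3).

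Within Wei, replicate 2 was the lowest library for 21 of the 30 genes and the highest for 0, while replicate 1 was the highest for 19. Within Yorkshire, replicate 3 was the lowest for 23 and the highest for 1. Several other measures moved with these libraries. The share of counts from the mitochondrial genome was 9.17%, 6.43% and 8.98% in Wei and 10.18%, 6.61% and 5.38% in Yorkshire, lowest in its breed in the same libraries. Wei replicate 1 had the lowest sum of all libraries for 6 skeletal muscle genes, 79640 CPM against 117713 to 153019 CPM elsewhere. The same held for 5 fast fibre genes, 57467 CPM against 68749 to 101461 CPM elsewhere, and the lists share MYLPF and TNNC2. Not every gene followed. DES was highest in Wei replicate 1, at 8058 CPM against 4897 to 7205 CPM elsewhere. TTN was lower in Wei replicate 3 (219 against 229 CPM) and MYH2 in Wei replicate 2 (2284 against 2602 CPM). Wei replicate 2, which held the Y chromosome counts, had the lowest sum of 6 slow fibre genes of all libraries, 9657 CPM. The sum was 16875 and 16167 CPM in the other Wei libraries and 10596 to 11703 CPM in Yorkshire. Against Yorkshire the list was split: MYL2, TNNC1, TNNI1 and TNNT1 were lowest in Wei replicate 2. MYL3, at 377 CPM there, lay above Yorkshire (339 to 359 CPM), and MYH7, at 6013 CPM, above Yorkshire replicate 2 (5285 CPM). Between breeds, all 6 slow fibre genes had a positive log2 fold change (median 0.25), against 47.8% of all tested genes. Of the 5 fast fibre genes 2 did (median -0.077), and 0 were called in either list. The 5 adipocyte genes of Wei replicate 2 summed to 41.5 CPM, against 11.1 and 18.7 CPM in the other Wei libraries and 15.7 to 22.6 CPM in Yorkshire. PLIN1 (11.9 CPM) and LIPE (26.3 CPM) were highest there. CIDEC was not, at 3.06 CPM against 3.50 CPM in Yorkshire replicate 3, nor was PCK1, at 0.195 CPM against 0.664 CPM in Yorkshire replicate 2. LEP, the leptin gene, was near 0 in every library. Without Wei replicate 2 the median log2 fold change of the 30 genes was 0.50, and without Yorkshire replicate 3, the library with the leukocyte markers, it was 0.30, with 26 of 30 still above 0. The part in these results of whatever gave the Y chromosome counts was not tested. Nor was that of the mitochondrial share or of the muscle, fibre, adipocyte and leukocyte genes. A fit without a library removes all traits of that library at once, so the fits above cannot separate them.

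**Figure D5:**
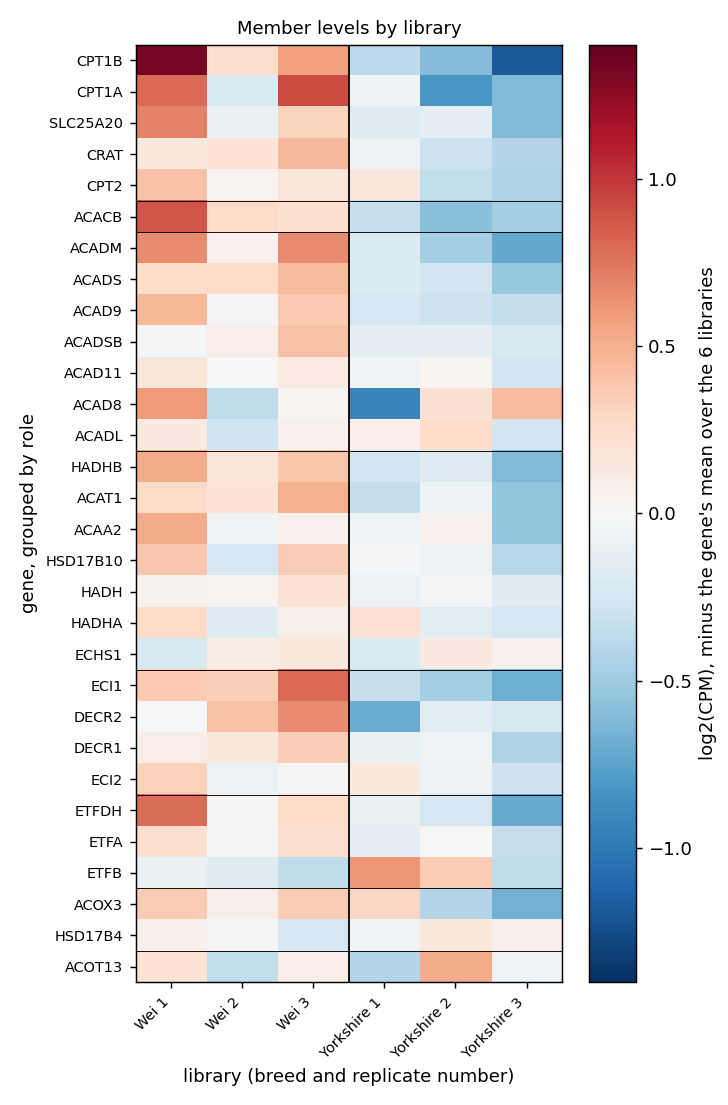
Log2 CPM of each tested gene in each library, minus the gene's mean over the 6 libraries, with Wei libraries left of Yorkshire libraries and genes grouped by role. Wei replicate 2 is the lowest Wei library for 21 of 30 genes, and Yorkshire replicate 3 the lowest of all 6 libraries for 21.

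Genes that work beside these enzymes, in lists chosen with earlier results known, held 1 further call. Over all tested genes, 2.73% were called higher in Wei and 2.35% lower. An unadjusted p under 0.05 was seen in 11.4% with Wei higher and 11.8% with Wei lower. The counts below come from short lists and are not read as a difference from those shares. Of 4 carnitine supply genes with a row, 3 were tested and SLC22A5, the carnitine transporter of the plasma membrane, was higher in Wei. It held 5.68, 7.995 and 8.76 CPM in Wei and 3.52, 2.54 and 3.06 CPM in Yorkshire, a log2 fold change of 1.29 ± 0.23 (adjusted p = 0.0254). ALDH9A1, an enzyme of carnitine synthesis, went the other way without passing: every Wei library lay below every Yorkshire library, with a log2 fold change of -0.35 ± 0.13 (adjusted p = 0.165). Of 12 tested genes of peroxisomal oxidation outside the list, 0 were called in edgeR's test, and 2 higher and 1 lower had an unadjusted p under 0.05, with HACL1, which cleaves hydroxylated branched chains, having the smallest p (log2 fold change 1.46 ± 0.48, adjusted p = 0.112) and by far its highest level in Wei replicate 2, at 17.7 CPM. No call was made by edgeR among 3 ketone body genes (1 at an unadjusted p under 0.05), 5 other acyl-CoA dehydrogenase and flavin supply genes (2) and 1 other thioesterase (0). The smallest p in these belonged to OXCT1, which activates ketone bodies (log2 fold change 0.36 ± 0.16), RFK, the riboflavin kinase (-0.50 ± 0.16), and ACOT9 (-0.19 ± 0.20).

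Among 9 tested genes of general mitochondrial content, 1 was called higher in Wei and 0 lower, with a median log2 fold change of 0.22. The change was positive in 8 of the 9. In 3, every Wei library lay above every Yorkshire library, and in 0 below. Over all tested genes, 2.73% were called higher and 2.35% lower, and 47.8% had a positive change. All Wei values lay above in 14.3% of them and below in 15.3%. The called gene was IMMT, a protein of the inner membrane folds, with a log2 fold change of 0.57 ± 0.12 (adjusted p = 0.0393). The summed level of the list was 1742, 1572 and 1650.4 CPM in Wei and 1541, 1524 and 1265 CPM in Yorkshire, which did not overlap. Whether the beta-oxidation genes differ beyond mitochondrial content was not tested.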

How the data were processed

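RNA sequencing libraries (Illumina TruSeq, per the labels) of 3 Wei and 3 Yorkshire loin muscles were grouped by the breed label. The authors deposited 1 table that gives, for each gene and library, the raw count and FPKM, per the file headers. Tools and build named in the submitters' processing notes are Sscrofa10.2, edgeR, TopHat2 2.0.9 and CASAVA 1.7. The sources used here do not give the read counter, strand setting or annotation release, so reads of overlapping genes cannot be told apart. The deposited FPKM was used for levels compared between genes and for alternatives.

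Genes of the deposited count table were kept by filterByExpr at a minimum count of 10. After TMM scaling, breed was the only term of edgeR 4.0.16's quasi-likelihood test (R 4.3.3), with Benjamini-Hochberg adjustment over 13209 genes and a threshold of 0.05. CPM values are TMM scaled. Each SE is the size of the log2 fold change divided by the root of F. The procedure was also run on simulated counts in which every gene had the same dispersion. That run does not test how it fares with the spread between these libraries. Counts of every 2 libraries differed beyond sampling noise, with a lowest chi-square of 26.3 per degree of freedom. Coordinates are those of the table. Figures were drawn with matplotlib 3.10.9.

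The members, roles, lists and tests were chosen with earlier results of these data known. Values per library are given for called genes and, in each role, for the genes with the smallest p and the highest level; other genes with such values were chosen after they were seen. Of the gene IDs, 1774 without a symbol were named by a reference table. The promoter search that was planned was not run, since no sequences were used here. Alternatives were RLE scaling, library size alone, other filters, DESeq2 1.42.0, limma 3.58.1 (voom, and on log2 of FPKM plus 1 or 0.1), other thresholds, a block for the replicate number, leaving out mitochondrial genes and ACTA1, and leaving out each library.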

Additional observations from a re-analysis of the deposited data

How the results depend on the processing

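The count of 6 called beta-oxidation genes was 4 to 7 under RLE scaling, library size alone, no count filter, the 1 CPM filter, limma voom, the fit that drops ACTA1 and mitochondrial genes, and with the 3 rows named by gene ID, an alternative chosen after seeing the data; all were higher in Wei. DESeq2 called 12 of them and 1291 of all genes, and limma on log2(FPKM + 1) 2 and 361, on log2(FPKM + 0.1) 1 and 305, and without a filter 0 and 97; the cause was not tested. An adjusted p under 0.1 gave 11 and 1469, and the stricter 0.01 gave 0 and 52. Leaving out a library gave 0 to 5 and 60 to 394, with fewer samples in each fit. The replicate block gave 3 (ACACB, CPT1B and ECI1) and 477; across genes, the deviations of libraries sharing a number had correlations of 0.14, -0.0066 and 0.022, and Wei replicates 2 and 3 correlated more with another number than with their own, so a shared number was not read as a pair. No called gene changed direction, which leaving out a library could hardly do, since the breeds do not overlap in them. Among uncalled genes, ECHS1 changed sign with library size alone (-0.027), the 1 CPM filter (-4.2e-05) and limma on FPKM (-0.015 in all 3 forms). Leaving out a library moved ECHS1 between -0.081 and 0.12, ACADL between -0.19 and 0.051, ACAD8 between -0.19 and 0.42 and ACOT13 between -0.26 and 0.22. The variant that sums several rows of a symbol was not run, since each symbol had 1 row. Depth kept CPT1C, with 14 counts in Wei and 23 in Yorkshire, out of the test.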
